A study of Mus musculus with 92 samples.

Results

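The step from 3 µM to 5 µM of A-485 was examined in mouse small intestinal organoids, epithelial cultures that hold crypt and villus cell types in 3-dimensional gel. The comparison takes 8 of the 92 libraries of the series, 4 at each dose, and pairs them by organoid line: every line gave 1 library at 3 µM and 1 at 5 µM. All 8 cultures were grown in ENR medium (EGF, Noggin and R-spondin) with A-485 and collected on day 4. Line 1 carried Eif4g2(+/+), Rosa26(CreER), and lines 2, 3 and 4 carried Eif4g2(flox/flox), Rosa26(CreER). The CreER recombinase gene was thus present in all 4 lines, and 4-OHT, which activates it, was not part of these treatments, so the floxed alleles were treated as unrecombined and the series calls the cultures wild type. DMSO (vehicle) and 10 µM cultures of the same lines give the neighbouring doses. A line is the replicate here (n = 4), and only line 1 has no floxed allele. Gene-level p-values weigh the dose change against the spread left after dose and line are fitted to the 16 libraries of the 4 doses. Differences in level between lines are taken out by that fit.

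A-485 is a catalytic inhibitor of the paralogous histone acetyltransferases p300 and CBP, which acetylate histone tails at enhancers and promoters and act as co-activators for many transcription factors. In the intestinal crypt, Wnt and Notch signals maintain dividing stem cells beside Paneth cells, and progenitors leave that niche to become absorptive enterocytes or the secretory goblet, enteroendocrine and tuft cells. After injury, crypt cells can take up a fetal-like programme with YAP targets, Ly6 and annexin genes. The question put to the dose step is which of these programmes still moved once organoids were already at the lower dose.

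Total counts were 9334286 to 12688726 per library at 3 µM and 10473997 to 16436145 at 5 µM, over 54532 genes, of which 13724 passed the filter on low counts. Levels are given as CPM, counts scaled by library size after TMM scaling over the 16 libraries of the 4 doses. Line 4 at 3 µM stood apart: 13158 genes had a read there, against 16865 to 17640 in the other 3 libraries at that dose, and it lay alone at -58.0 on the third principal component (8.7% of the variance). At 5 µM, line 1 and line 4 had fewer genes with a read (15388 and 14557) than lines 2 and 3 (16929 and 17371). The first component (70% of the variance) put the doses in order, with 3 µM libraries from -35.1 to -12.7 and 5 µM libraries from 8.63 to 24.6. The organoid label was checked against markers: Cdh17, Krt8 and Krt19, genes of intestinal epithelium, were at 1655, 2895 and 2380 CPM at 3 µM, while summed stromal markers stayed at or under 6.76 CPM and summed immune markers at or under 2.23 CPM in the 8 libraries.

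Raising A-485 from 3 to 5 µM changed 4277 of 13724 genes (31.2%) at an edgeR quasi-likelihood adjusted p under 0.05, with line as a block. Of these, 2124 (15.5%) were higher and 2153 (15.7%) lower at 5 µM. Each dose against DMSO shares these libraries: 3603 genes (26.3%) had changed at 3 µM and 7408 (54.0%) at 5 µM. From 3 to 5 µM the falls were larger: 783 genes fell more than 2-fold and 109 more than 8-fold, against 266 and 7 that rose as much. The median log2 fold change over all tested genes was 0.002. For 3348 genes (24.4%) the 4 libraries at 5 µM did not overlap the 4 at 3 µM, 1738 lower (12.7%) and 1610 higher (11.7%). The count of changed genes depended on lines 2 and 3: it was 2723 without line 2, 2564 without line 3, 3359 without line 1 and 4825 without line 4.

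**Figure D1:**
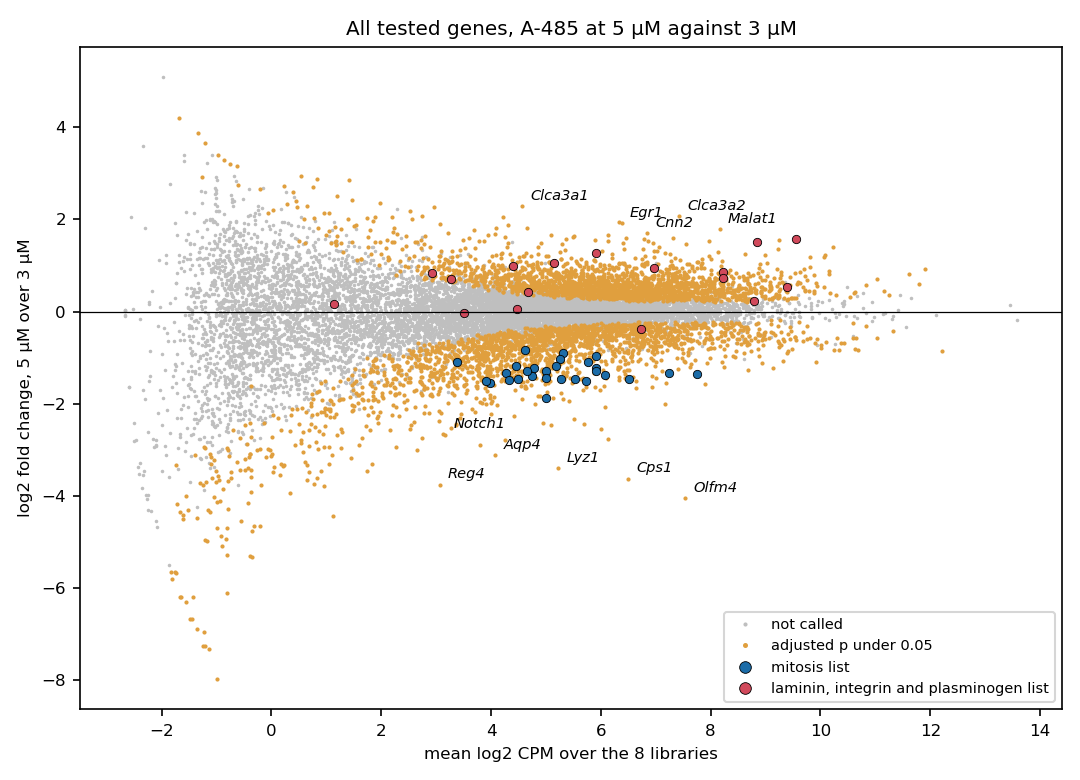
Each point is a tested gene, with its mean log2 CPM over the 8 libraries on the x axis and its log2 fold change at 5 µM over 3 µM on the y axis; orange points passed an adjusted p under 0.05 and grey points did not. All 28 mitosis genes (blue) lie below 0 and most laminin, integrin and plasminogen genes (red) above it.

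Olfm4, a secreted glycoprotein that marks crypt base stem cells, had the largest fall among abundant genes. In lines 1 to 4 it stood at 339, 1039, 1139 and 746 CPM at 3 µM and 45.6, 42.7, 54.8 and 44.6 CPM at 5 µM. All 4 libraries at 5 µM were below every library at 3 µM, and the lines differed far less at 5 µM than at 3 µM, where line 1 was lowest. The log2 fold change was -4.06 ± 0.34 (standard error), a 16.7-fold fall with an edgeR adjusted p of 4.7e-05. The next falls in size were Reg4 (-3.76), a secreted lectin of secretory cells, Cps1 (-3.63), the first enzyme of the urea cycle, and Lyz1 (-3.41), the Paneth cell lysozyme. Among the 12 largest falls were also Aqp4 (-3.12), a water channel, the antimicrobial ribonuclease Ang4 (-2.91), Rnase1 (-2.79), Notch1 (-2.67), Ascl2 (-2.65), Itln1 (-2.56), Khdc1a (-2.52) and Cd177 (-2.46).

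The largest rises were smaller. Clca3a1 and Clca3a2, neighbouring members of the calcium-activated chloride channel regulator family, rose by 2.28 ± 0.35 and 2.07 ± 0.29 on the log2 scale. Egr1, an immediate-early transcription factor, was at 70.2, 45.1, 33.9 and 28.9 CPM at 3 µM and 185, 152, 146 and 175 CPM at 5 µM. The doses did not overlap, and it rose 3.80-fold (edgeR adjusted p = 1.3e-06). Slc12a4 (2.04), a potassium-chloride cotransporter, Ehd2 (1.95), a protein of caveolae, Cnn2 (1.70), an actin-binding calponin, and Mapk11 (1.82), a p38 kinase, were among the 12 largest. So were Bmp8a (1.91), Rnf39 (1.88), Unc13d (1.81), Gml (1.70) and the nuclear long non-coding RNA Malat1 (1.79). Counts of Clca3a1, Clca3a2, Bmp8a, Ang4, Lyz1, Khdc1a and Gml are uncertain, since these genes have near-identical relatives.

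Genes of cell division fell together at this step. All 28 tested genes of the mitosis list and 25 of the 30 of the DNA replication list were lower at 5 µM, and none was higher. Of all tested genes 15.7% were lower and 15.5% higher. The list medians were -1.33 and -1.23 on the log2 scale, beside 0.002 over all tested genes. In bulk samples, fewer dividing cells and less of these RNAs per cell cannot be told apart.

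Ube2c, which loads ubiquitin for the anaphase-promoting complex, stood at 106, 104, 100.3 and 127 CPM at 3 µM and 48.5, 40.5, 41.3 and 38 CPM at 5 µM in lines 1 to 4. All libraries at 3 µM were above all at 5 µM, and the fall was 2.60-fold (-1.38 ± 0.11, edgeR adjusted p = 1.1e-06). Cdk1, the kinase that drives entry into mitosis, went from 90.9, 87.8, 87.9 and 108 CPM to 40.9, 39.6, 36.3 and 36.1 CPM (-1.29 ± 0.11). Bub1b, a spindle checkpoint kinase, went from 56.9, 61.7, 67 and 62.1 CPM to 21.8, 19.4, 14.7 and 11.8 CPM and fell most of the 28 (-1.88 ± 0.16). Tpx2, a spindle assembly factor, fell by 1.47, and Mki67, the Ki-67 antigen gene, by 1.34, from 252 ± 70.3 to 98.2 ± 33.4 CPM (SD, n = 4). In the replication list, Mcm7, a subunit of the replicative helicase, went from 186, 198, 220.1 and 197 CPM to 94.4, 80.2, 72.2 and 58.3 CPM (-1.40 ± 0.12), with no overlap. Uhrf1, which couples replication to DNA methylation, fell by 1.48, Rrm1, a subunit of ribonucleotide reductase, by 1.24, and Mcm6 by 1.09. The 5 replication genes that did not pass the test were Gins2 (-0.63), Gins3 (-0.66), Fen1 (-0.34), Ccne2 (-0.51) and E2f1 (-0.43).

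The 250 bases before the RefSeq starts (GRCm38.p6) of these cell division genes were searched on both strands for 3 letter patterns. The patterns are known from cell-cycle promoters: CCAAT, the NF-Y box, TTTGAA, a form of the cell-cycle homology region, and GGCGGGAA, a form of the E2F site. No pattern contains another, although CCAAT can share its first letters with the end of the E2F pattern read on the other strand. A promoter entry was found for 22 of the 28 mitosis genes, 24 of the 30 replication genes and 10051 of the tested genes. CCAAT was present at 18 of 22 mitosis genes (81.8%) and 15 of 24 replication genes (62.5%), beside 40.9% of tested genes. TTTGAA was present at 8 of 22 (36.4%) and 4 of 24 (16.7%), beside 12.8%. GGCGGGAA was present at 0 of 22 and 3 of 24 (12.5%), beside 4.10%. Per promoter of the table, the shares were 33.8% for CCAAT, 16% for TTTGAA and 1.86% for GGCGGGAA. A match describes the letters only, and binding was not measured. The stretches below, 150 bases that end 10 bases before the start, are shown 5′ to 3′ along each gene for 3 mitosis genes and 2 replication genes, with the searched patterns in capitals whichever strand holds them. On the plus strand lie Ube2c chr2:164769770-164769919, Bub1b chr2:118598052-118598201, Uhrf1 chr17:56303178-56303327 (the first of its 2 starts) and Rrm1 chr7:102441536-102441685, and on the minus strand Cdk1 chr10:69352922-69353071.
Ube2c: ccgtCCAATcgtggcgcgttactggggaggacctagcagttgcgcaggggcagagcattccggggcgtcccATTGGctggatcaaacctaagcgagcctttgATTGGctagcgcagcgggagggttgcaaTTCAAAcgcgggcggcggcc
Cdk1: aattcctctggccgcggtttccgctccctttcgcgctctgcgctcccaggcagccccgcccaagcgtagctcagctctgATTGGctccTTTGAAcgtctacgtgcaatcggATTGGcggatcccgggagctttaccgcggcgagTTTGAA
Bub1b: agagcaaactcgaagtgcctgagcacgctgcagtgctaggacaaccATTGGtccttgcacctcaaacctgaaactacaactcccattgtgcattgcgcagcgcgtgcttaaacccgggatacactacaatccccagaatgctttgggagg
Uhrf1: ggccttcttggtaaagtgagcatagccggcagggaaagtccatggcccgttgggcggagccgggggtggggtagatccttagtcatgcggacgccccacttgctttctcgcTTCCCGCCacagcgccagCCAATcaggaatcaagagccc
Rrm1: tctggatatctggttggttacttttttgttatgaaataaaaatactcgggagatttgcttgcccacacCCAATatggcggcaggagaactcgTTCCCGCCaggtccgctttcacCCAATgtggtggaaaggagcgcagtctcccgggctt
Ube2c holds 3 CCAAT boxes and 1 TTTGAA in its stretch, and Cdk1 holds 2 of each. Bub1b, the mitosis gene with the largest fall, holds 1 CCAAT box and no TTTGAA. Uhrf1 holds 1 CCAAT box and 1 GGCGGGAA, and Rrm1 holds 2 CCAAT boxes and 1 GGCGGGAA. These genes do not stand for the replication list, of which 3 of 24 hold GGCGGGAA: the stretches of Mcm7 and Mcm6 and of the second start of Uhrf1, not shown, hold none.

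For part of these genes the change at this step differed from that at a neighbouring step. From DMSO to 3 µM, 8 of 28 mitosis genes were lower (median -0.39) against a background of 12.5% of genes lower at that step. From 5 to 10 µM, 6 were lower and 2 higher (median -0.33), where 14.2% and 9.30% of genes were. The 3 steps share libraries and differ in width (3, 2 and 5 µM), so their values are set side by side and their differences were tested within the same edgeR fit. The step from 3 to 5 µM was more negative than the step from DMSO to 3 µM for 11 of the 28 mitosis genes and 11 of the 30 replication genes, where 3.14% of genes were more negative. The step from 5 to 10 µM was more positive than that from 3 to 5 µM for 14 mitosis and 8 replication genes, where 1.72% of genes were. Cdk1 fell by 1.29 at the middle step and rose by 0.38 at the last (difference 1.67, edgeR adjusted p = 3.3e-05). Trip13, a remodeller of checkpoint complexes, and Dlgap5, a spindle protein, were among the 4 genes with the most positive difference at the last step at a mean log2 CPM of at least 3: they went from 28.5 to 7.54 to 8.06 CPM and from 20.2 to 6.47 to 9.67 CPM at 3, 5 and 10 µM.

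**Figure D2:**
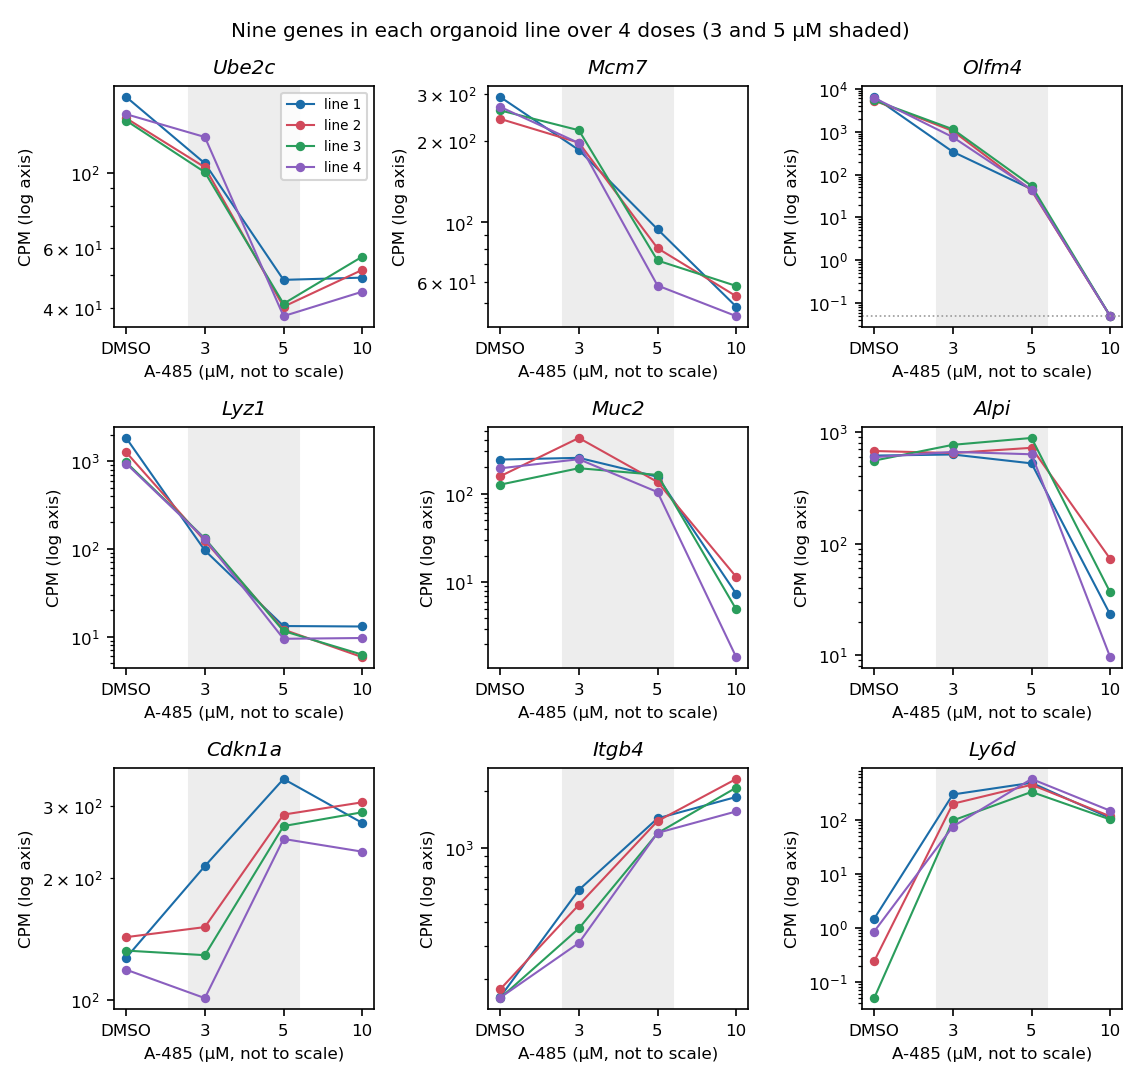
CPM on log axes (the scale differs between panels) for 9 genes, with each organoid line joined over DMSO, 3, 5 and 10 µM and the step from 3 to 5 µM shaded; values under 0.05 CPM are drawn at 0.05. Ube2c, Mcm7, Olfm4 and Lyz1 fell in all 4 lines across the shaded step and Cdkn1a, Itgb4 and Ly6d rose in all 4, while Alpi dropped after 5 µM.

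Crypt base stem cell genes fell with the division genes. Of 24 tested, 20 were lower and 1 higher at 5 µM (median -1.01), where 15.7% and 15.5% of all genes were. Lgr5, the R-spondin receptor that marks these cells, was at 172, 196, 209 and 206 CPM at 3 µM and 99.2, 88.6, 98.2 and 94.7 CPM at 5 µM. The doses were apart in every line, and the fall of 1.05 ± 0.19 (edgeR adjusted p = 0.00072) was close in size to that from DMSO to 3 µM (-1.10), the difference between the steps being 0.06 ± 0.32. Ascl2, the Wnt-responsive transcription factor of stem cells, went from 21.6, 23.1, 32.3 and 15.2 CPM to 4.90, 3.05, 5.83 and 1.16 CPM, a 6.28-fold fall. Its fall at this step was larger than from DMSO to 3 µM by 1.82 on the log2 scale (edgeR adjusted p = 0.027). Cd44, a Wnt target and hyaluronan receptor, fell by 1.45, and Slc12a2, a chloride cotransporter of crypt cells, by 1.09. The 1 riser, named after its value was seen, was Prom1 (0.81), and Lgr4 (0.01 ± 0.10), Cdk6 (-0.01 ± 0.09) and Nkd1 (-1.82 ± 0.68) did not pass the test.

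Paneth cell genes, already low at 3 µM, fell further. At this step 13 of 20 were lower and none higher (median -1.81), where 15.7% and 15.5% of all genes were. From DMSO to 3 µM, 18 of 20 had been lower and 1 higher (median -4.28), where 12.5% and 13.7% of all genes were. Lyz1 went from 96.1, 123, 131 and 130.1 CPM to 13.2, 12, 11.6 and 9.44 CPM, a 10.6-fold fall (edgeR adjusted p = 1.3e-06) with no overlap. It then moved by only -0.45 ± 0.25 from 5 to 10 µM, and the difference between those steps was 2.96 (adjusted p = 0.00074). Itln1, an intestinal lectin, went from 159 to 27.2 CPM and Defa24, an alpha-defensin, from 92.7 to 28.5 CPM. For Defa24 the middle step was less negative than the first by 1.68 (edgeR adjusted p = 0.011). Alpha-defensins and Lyz1 have close paralogs, so their single values are uncertain. The Paneth count was 8 without line 2 and 7 without line 3.

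Goblet and enteroendocrine genes also fell. In the goblet list 15 of 20 were lower and none higher (median -1.54), where 15.7% and 15.5% of all genes were. From DMSO to 3 µM the median was 0.20 with 4 higher and 5 lower, where 13.7% and 12.5% of all genes were. Agr2, a disulfide isomerase needed for mucin folding, was at 159, 275, 207 and 232 CPM at 3 µM and 70.1, 68.6, 78.6 and 59.2 CPM at 5 µM, with no overlap. It fell 3.13-fold, and its change was more negative than at the first step by 2.14 (edgeR adjusted p = 0.0015). Atoh1, the transcription factor that commits cells to the secretory fate, went from 20.3, 34.4, 26.3 and 14.7 CPM to 9.02, 4.49, 5.10 and 3.28 CPM (-2.22 ± 0.43). Spink4 fell by 1.55 and Creb3l1, a transcription factor of secretory cells, by 1.54. Muc2, the gel-forming mucin, was at 252, 423, 193 and 244 CPM and 155, 135, 162 and 104 CPM, a fall of 0.95 ± 0.32 whose edgeR adjusted p of 0.040 was 0.13 without line 2 and 0.054 in DESeq2. The goblet count was 9 without line 2 and 8 without line 3.

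In the enteroendocrine list 12 of 21 were lower and 1 higher (median -2.16), where 15.7% and 15.5% of all genes were. Neurog3, the factor that specifies these cells, was at 14.4, 22.6, 14.3 and 5.32 CPM at 3 µM and 5.27, 4.32, 1.38 and 0 CPM at 5 µM. The doses did not overlap, and the fall was 2.57 ± 0.52 after a change of -0.17 at the first step. Nkx2-2, a transcription factor downstream of it, fell by 3.13 from 6.52 CPM, Pcsk1, a prohormone convertase, by 1.87, and the tachykinin gene Tac1 by 3.76 from 2.73 CPM. Chga (chromogranin A) was at 16.3, 22, 24.2 and 1.02 CPM and 5.51, 3.47, 6.48 and 2.31 CPM and did not pass (adjusted p = 0.072). Line 4 at 3 µM was alone in being low, and without line 4 the value was -2.02 (edgeR adjusted p = 0.0013). Cpe (carboxypeptidase E), named after its value was seen, was the riser (0.96). The count was 7 without line 3. Of 13 tuft cell genes 5 were lower (15.7% of all genes were), including the ion channel Trpm5 (-1.89) and Cd24a (-1.12). Tuft markers were near the detection limit at 5 µM: Dclk1 had no read in 3 of 4 libraries and 0.146 CPM in line 3, from 0.931 CPM at 3 µM. In 0-read libraries at 5 µM, 3 counts would be 0.182 to 0.289 CPM, the upper limit that a count of 0 allows (counting error only). The tuft count was 2 of the 5 genes that could be tested in the 8 libraries alone and 3 to 5 of 13 with a line or a library left out.

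Enterocyte genes leaned lower at this step, with members going each way. Of 30 tested, 9 were lower and 2 higher (median -0.52), where 15.7% and 15.5% of all genes were. By the sign of the change alone, 23 were lower and 6 higher. Alpi, the brush border alkaline phosphatase, was at 628, 646, 766 and 662 CPM at 3 µM and 523, 720.3, 882 and 630.3 CPM at 5 µM. The doses overlapped and 2 lines went each way, for a change of 0.00 ± 0.34. Apob, the structural protein of chylomicrons, rose from 2351, 2808, 2451 and 3621 CPM to 4027, 5095, 5527 and 6791 CPM (0.92 ± 0.11, edgeR adjusted p = 1.6e-05). Cps1, named above, and Hsd17b13 (-1.54), a lipid droplet enzyme, were falls named by rule. From 5 to 10 µM all 30 were lower (median -3.53), where 14.2% of all genes were. That step was more negative than the middle one for 24 of them, where 6.42% of genes were. The enterocyte count at the middle step was 3 without the line block, 14 in the 8 libraries alone and 16 with no filter on low counts.

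Transcription factors of intestinal identity moved little at this step: 3 of 24 were higher and 5 lower, with a median of -0.05, and these shares are near the background of 15.5% and 15.7%. Cdx2 was at 165, 155, 182 and 79.2 CPM and 144, 136, 147 and 127 CPM (-0.04 ± 0.14). Line 4 at 3 µM was the low value, and without line 4 Cdx2 was lower by 0.23 (edgeR adjusted p = 0.027). Its paralog Cdx1 fell by 0.76, Foxa3 by 1.48 and Foxa2 by 0.85, while Tcf7l2, the Wnt effector, rose by 0.50. The count of lower factors was 1 without line 2, where Foxa2 and Foxa3 had adjusted p of 0.053 and 0.062. From 5 to 10 µM, 17 of the 24 were lower (median -0.86), where 14.2% of all genes were.

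Adhesion and matrix genes rose. In the laminin, integrin and plasminogen list 11 of 17 were higher and 1 lower (median 0.73), where 15.5% and 15.7% of all genes were. Itgb4, the integrin subunit of hemidesmosomes, was at 595, 496, 371 and 311 CPM at 3 µM and 1432, 1385, 1194 and 1198 CPM at 5 µM. The lowest library at 5 µM was above the highest at 3 µM, and the rise was 2.99-fold (1.58 ± 0.12, edgeR adjusted p = 1.1e-06). Plaur, the urokinase receptor, rose by 1.27 and Itga3, a laminin receptor subunit, by 0.86. Itga2, named after its value was seen, was the 1 that fell (-0.39).

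Of 18 genes for EGF ligands, receptors and ERK feedback, 10 were higher and 1 lower (median 0.57), where 15.5% and 15.7% of all genes were. The 1 fall, named after its value was seen, was Etv4 (-1.11). Dusp6, the ERK phosphatase, was at 141, 97.1, 73.2 and 140.2 CPM and 272, 222, 214 and 286 CPM, with no overlap (1.16 ± 0.13, edgeR adjusted p = 9.8e-06). Errfi1, a feedback inhibitor of the EGF receptor, rose by 0.98, and the ligands Tgfa and Btc by 1.02 and 1.11. In the YAP and TEAD list 9 of 17 were higher and 3 lower (median 0.52), the share of lower genes being near the 15.7% of all genes. Ctgf went from 80.6, 57.4, 39.8 and 34.9 CPM to 181, 144, 108 and 196 CPM (1.60 ± 0.21) and Cyr61 from 23.9, 18.2, 16.2 and 12.6 CPM to 43.5, 47.5, 22.9 and 53.7 CPM (1.21 ± 0.30). Both are secreted matricellular proteins. Ctgf separated the doses, while Cyr61 in line 3 at 5 µM lay within the 3 µM range, and without line 4 its adjusted p was 0.059. The list's count of risers was 5 without line 2. Dock5 (0.49) and Crim1 (0.52) rose less. The 3 falls of the list, named after their values were seen, were Rbms3 (-1.88), an RNA-binding protein, Axl (-1.76), a receptor tyrosine kinase, and the kinase Nuak2 (-1.30), all under 10 CPM on average at 3 µM.

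Part of the fetal and regenerative programme was higher at this step: 9 of 22 genes rose and 2 fell (median 0.49; 15.5% and 15.7% of all genes did), after 16 higher from DMSO to 3 µM (median 1.93, background 13.7%). For 12 of the 22 the middle step was more negative than the first, where 3.14% of all genes were. The falls, named after their values were seen, were Vsig1 (-1.65), a junctional immunoglobulin protein, and the cytokine gene Il33 (-1.62), and neither passed the test without line 2. Ly6d, a GPI-anchored Ly6 protein, was at 290.2, 196, 96 and 74.1 CPM at 3 µM and 477, 439, 324 and 562 CPM at 5 µM, with no overlap (1.54 ± 0.35, edgeR adjusted p = 0.0061), from a mean of 0.639 CPM in DMSO, and it fell back by 1.92 from 5 to 10 µM. Psca, a relative of it, went from 65.5, 47, 19.9 and 22.5 CPM to 116, 101, 74.3 and 126 CPM (1.56 ± 0.29). Krt7, a simple keratin, rose by 1.19, Msln (mesothelin) by 1.24, and the annexins Anxa5 and Anxa3 by 1.06 and 0.94. Ly6a (Sca-1) was at 336, 253, 135 and 309.8 CPM and 419.5, 435, 229 and 559 CPM and rose within every line by 0.68 ± 0.23, with an edgeR adjusted p of 0.037 that became 0.16 without line 2 and 0.12 without line 4. Clu (clusterin), which marks revival stem cells, was at 424, 551, 281 and 289.8 CPM and 412, 371, 298 and 429 CPM, a change of 0.00 ± 0.17 after a rise of 1.45 at the first step.

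**Figure D3:**
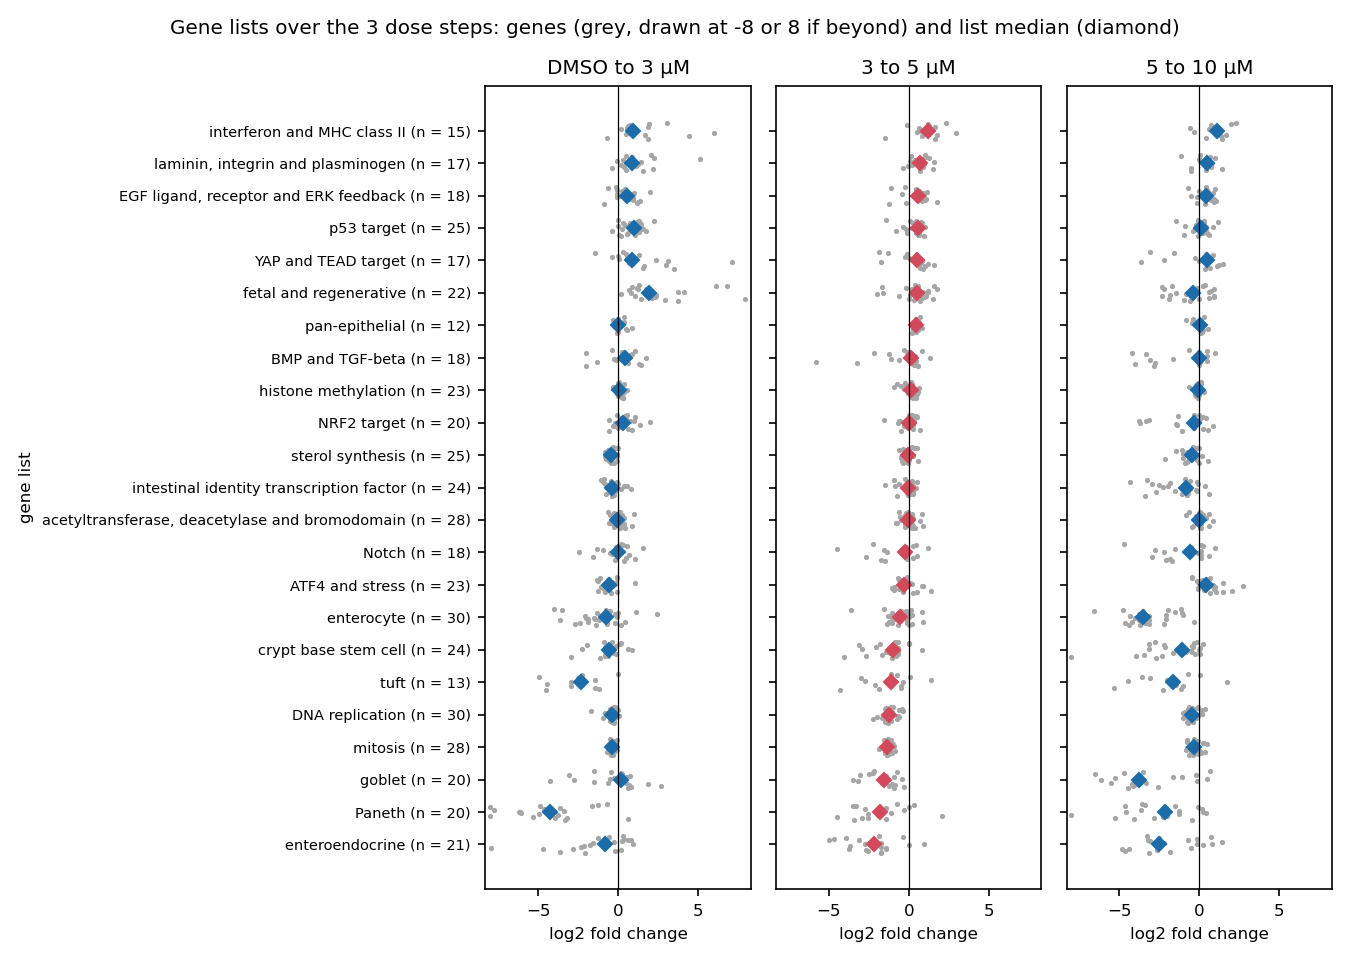
Log2 fold change on the x axis for the genes of 23 lists with at least 12 tested members (grey points, drawn at -8 or 8 where beyond) and the list median (diamond), in 1 panel for each dose step. In the middle panel the mitosis median is -1.33 and the laminin, integrin and plasminogen median 0.73, and the enterocyte median falls from -0.52 there to -3.53 in the right panel.

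Targets of p53 rose: 14 of 25 were higher and 2 lower (median 0.55), where 15.5% and 15.7% of all genes were. From DMSO to 3 µM, 17 of the 25 had already been higher and none lower (median 0.99), where 13.7% and 12.5% of all genes were. Cdkn1a, the cyclin-dependent kinase inhibitor p21, was at 214, 151, 129 and 101 CPM at 3 µM and 351, 286, 268 and 249 CPM at 5 µM. The doses did not overlap, the rise was 1.98-fold (edgeR adjusted p = 2.8e-05), and it was larger than the change from DMSO to 3 µM (0.15) by 0.83 (adjusted p = 0.042). Cdkn1a was the 1 gene of the list with a more positive change at the middle step, and 4 had a more negative one. Over all genes these shares were 1.50% and 3.14%. From 5 to 10 µM Cdkn1a changed by -0.06 ± 0.12. Tnfrsf10b, a death receptor, rose by 1.03 and Perp, a desmosomal protein, by 0.64. Ckap2 fell by 1.43. It is a microtubule-associated protein of dividing cells that the p53 list also holds. The other fall of the list, named after its value was seen, was Sesn1 (-0.82). The count of risers was 9 without line 3 and 9 without the line block.

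Interferon response genes were higher for 7 of 15 tested and lower for none (median 1.21), where 15.5% and 15.7% of all genes were. The MHC class II genes of that list were all below the filter on low counts. Levels were low: the summed list was 136.6 to 211.8 CPM at 3 µM and 289.1 to 347.5 CPM at 5 µM. Irf7, a transcription factor that interferon induces, was at 44.6, 21.1, 18.7 and 22.2 CPM and 94.5, 73.7, 93.8 and 67.5 CPM (1.63 ± 0.30, edgeR adjusted p = 0.0012). Line 1 was highest at both doses and the doses did not overlap. Stat2 (1.49) and Irf9 (1.27), partners in the interferon-stimulated gene factor, and Oas1a (0.97), an antiviral synthetase, also rose.

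The genes of the enzymes that A-485 targets were measured next. Ep300, which encodes p300, was at 177, 171, 192 and 256 CPM at 3 µM and 239, 212, 253 and 353 CPM at 5 µM. It was higher at 5 µM in all 4 lines, although the doses overlapped, and rose by 0.40 ± 0.09 (edgeR adjusted p = 0.0019 with the line block, 0.085 without). Crebbp, which encodes CBP, changed by 0.23 ± 0.10 (adjusted p = 0.11). Among 28 genes for acetyltransferases, deacetylases and bromodomain proteins, 5 were higher and 7 lower, where 15.5% and 15.7% of all genes were, and the lower count was 3 without line 3. Kat2b, another acetyltransferase, rose from 47.9, 40.8, 41.3 and 41.7 CPM to 73.5, 76.3, 66.5 and 109 CPM (0.90 ± 0.14), and Brd2, a bromodomain reader of acetylated histones, by 0.70. Hat1, which acetylates new histones, and Hdac2 fell by 0.75 and 0.55. Of 23 histone methylation genes 5 were higher and 4 lower, shares near those of all genes, and the lower count was 2 without line 2. Ezh2, the catalytic subunit of Polycomb repressive complex, fell by 0.93 and its partner Eed by 0.47, Nsd2 by 0.75, and Kdm6b, a demethylase for the mark that Ezh2 writes, rose by 0.55. Eif4g2, the gene with floxed alleles in lines 2 to 4, was at 1224, 1207, 1140 and 1711 CPM and 1159, 1122, 1129 and 1419 CPM (-0.12 ± 0.09, adjusted p = 0.33).

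In the Notch list 3 of 18 were higher and 5 lower (median -0.24), where 15.5% and 15.7% of all genes were. The share of higher genes was thus near that of all genes. Notch1, the receptor, went from 18.4, 25.2, 33.7 and 16.8 CPM to 1.64, 3.64, 6.84 and 3.08 CPM, a 6.37-fold fall with no overlap (edgeR adjusted p = 1.2e-05). The ligand Dll1 fell from 52.1 to 18.8 CPM, with a change more negative than at the first step by 1.85 (adjusted p = 0.0017), while Adam10, the protease that cleaves Notch receptors, rose by 0.48. Of 18 BMP and TGF-beta genes 3 were higher and 3 lower, shares near the 15.5% and 15.7% of all genes, and the lower count ran from 1 to 5 over the alternatives. The receptors Tgfbr2 and Bmpr2 rose by 0.83 and 0.39, the ligand Bmp7 fell by 1.09, and the ligand Bmp8b rose by 1.34. Bmp8b and the Bmp8a named above are near-identical neighbours.

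Metabolic lists went in mixed directions. Of 23 ATF4 and stress genes 9 were lower and 2 higher (median -0.27), where 15.7% and 15.5% of all genes were. Asns (asparagine synthetase), Shmt2 and Cth fell by 0.93, 1.07 and 0.70, and Atf5 rose by 0.86. From 5 to 10 µM, 10 of these 23 were higher and 2 lower, and for 8 that step was more positive than the middle one, where 9.30%, 14.2% and 1.72% of all genes were. Of 25 sterol synthesis genes 9 were lower and 4 higher (median -0.04), the share of higher genes being near that of all genes. Lss and Dhcr7, enzymes of cholesterol synthesis, fell by 0.48 and 0.46. The sterol count of falls was 4 without line 2 and 4 without line 3. Of 20 NRF2 targets 2 were higher and 2 lower, shares under those of all genes, and the counts were 5 and 5 with no filter and 4 and 4 in the 8 libraries alone. Among the falls was Gpx2, a gastrointestinal glutathione peroxidase, at 382, 503, 474 and 309.8 CPM and 154, 149.6, 152 and 104 CPM (-1.57 ± 0.13). Abcc4 rose by 0.50.

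Ribosomal protein genes, a list added after values were seen, were lower for 68 of 83 and higher for none (median -0.61). Of all tested genes 15.7% were lower and 15.5% higher. Ribosomal protein genes took 5.46% ± 0.238 of all counts at 3 µM and 3.45% ± 0.405 at 5 µM (SD, n = 4). The share was lower in 4 of 4 lines (exact two-sided sign-flip permutation p = 0.125, the smallest that 4 pairs allow), beside 6.47% in DMSO and 2.5% at 10 µM. Several of these genes have processed pseudogenes that can take or add reads. Mitochondrial transcripts took 2.29% ± 0.382 and 2.62% ± 0.550, a mean difference of 0.334 percentage points that was -0.0970 without line 4, and no difference was detectable (exact permutation p = 0.875).

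Genes of other tissues were followed as a check on identity. Of 20 squamous genes 5 passed the filter: Sprr2a1, a cornified envelope protein also made by villus cells, rose from 1317, 975, 739.5 and 512 CPM to 1711, 1332, 1457 and 1861 CPM (0.88 ± 0.24), and Krt4 fell by 2.19 from a mean of 4.55 CPM. Of 19 gastric genes 7 passed the filter, summing to 10.2 to 27.9 CPM at 5 µM, and Tff2 fell by 2.55. Among 12 pan-epithelial genes 9 were higher and none lower (median 0.46), where 15.5% and 15.7% of all genes were. Krt19 went from 3025, 2364, 2004 and 2127 CPM to 4706, 4216, 4495 and 3384 CPM (0.82 ± 0.09), without overlap, and Krt8, Cdh17 and Tspan8 rose by 0.60, 0.71 and 0.62. Vim, the stromal filament gene, was at 0.533, 2.23, 2.13 and 4.81 CPM and 0.484, 0.677, 0.583 and 0 CPM, and Itgam, the immune marker that passed the filter, at 0.787 and 0.390 CPM. The part of these few stromal and immune reads in the results was not tested.

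The middle step was set against its neighbours over all genes. Against the step from DMSO to 3 µM, 637 genes differed (4.64%), 206 with a more positive (1.50%) and 431 with a more negative change (3.14%) at 3 to 5 µM. Among called genes with a mean of at least 3 on the log2 CPM scale, the 4 most negative were Ly6d, Cav1, Prl2c3 and Ggta1. Cav1, the coat protein of caveolae, and Ggta1, a galactosyltransferase, were at 0.411 and 0.575 CPM in DMSO, 50.1 and 34.6 CPM at 3 µM and 71.5 and 73.3 CPM at 5 µM. Their log2 changes from DMSO to 3 µM were 6.82 and 5.97. At the middle step Cav1 changed by 0.58 and did not pass the test, and Ggta1 rose by 1.01. In the same range of levels the 4 most positive were Reg1, Reg3g, Acox2 and Entpd2. Reg3g, an antibacterial lectin, dropped by 2.46 at the first step and changed by -0.39 ± 0.21 at the middle one, whereas Entpd2, an ectonucleotidase, dropped by 0.93 and then rose by 1.00 ± 0.17 (edgeR adjusted p of the difference = 0.0015). Reg1 and Prl2c3 have close paralogs. This count was sensitive to the lines and the scaling: it was 83 without line 2, 165 without line 3, 321 without line 1 and 225 without the line block.

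Against the step from 5 to 10 µM, 1117 genes differed (8.14%), 881 with a more negative (6.42%) and 236 with a more positive change (1.72%) at the last step. At a mean log2 CPM of at least 3, the 4 most negative were Olfm4, Kbtbd11, Enpp3 and Muc3. Muc3, a membrane mucin of enterocytes, was at 216, 115, 129 and 176 CPM at 3 µM and 402, 229.8, 504 and 279.7 CPM at 5 µM, a rise of 1.14 ± 0.29 without overlap, and then at 22.3 CPM at 10 µM. Kbtbd11 and Enpp3 did not pass the test at the middle step (-0.72 ± 0.26 and 0.35 ± 0.38) and reached 0.199 CPM (Enpp3) and 0 CPM (Kbtbd11) at 10 µM. The 4 most positive at that level were Lyz1, Trip13, Dlgap5 and Prox1. Prox1, a homeobox transcription factor, rose by 1.25 at the first step and fell by 1.26 at the middle one. The count was 535 without line 2, 440 without line 3 and 670 without the line block.

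The 4 lines were compared with each other at this step. When genes were called in the other 3 lines, 97.0% of those higher and 95.7% of those lower moved the same way in line 1, and at least 98.5% did in lines 2 and 3. In line 4 the shares were 89.8% and 81.1%, where 55.4% of all genes were higher at 5 µM. Line 1 had the smallest list medians for mitosis (-0.97, against -1.42 to -1.61 in the others), DNA replication and stem cell genes, and it lay closest to the 5 µM libraries on the first component at 3 µM (-12.7). Line 4 had medians near 0 for Paneth (-0.23), enteroendocrine (-0.32) and tuft genes (0.00). A median counts each member alike, and a prior count of 2 draws members with few reads toward 0. Summed CPM in line 4 still fell for Paneth genes (845.5 at 3 µM, 314.4 at 5 µM) and tuft genes (682.9 and 333.2). Cd24a made up most of the tuft sum, with 98789 reads over the 16 libraries against at most 1359 for any other tuft gene. That sum thus shows little of the other tuft genes. For enteroendocrine genes the sum was 115 and 123.2 CPM in line 4. It includes Cpe, the riser of that list (0.96 over the 4 lines), while Chgb and Chga were at most 10.6 and 6.48 CPM at 5 µM. A flat sum thus does not show that the other enteroendocrine genes held their level in line 4. The low number of genes with a read in line 4 at 3 µM moved with these medians, and its part in them was not tested. Without line 4 the Paneth median was -2.18 with 14 lower, the enteroendocrine median -2.31 with 15 lower, and the mitosis median -1.35 with 28 of 28 lower.

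**Figure D4:**
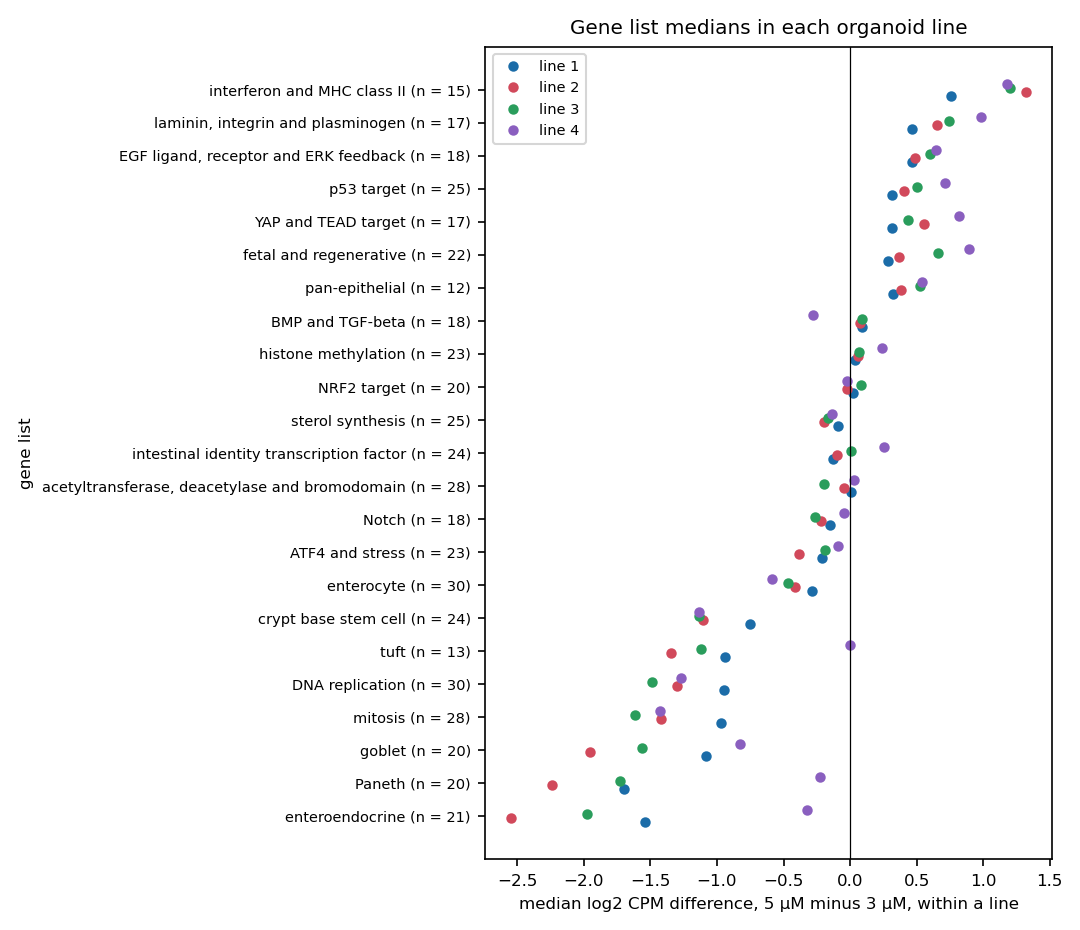
Median log2 CPM difference, 5 µM minus 3 µM, within each organoid line for the 23 lists with at least 12 tested genes; each point is 1 line. Mitosis medians run from -1.61 to -0.97 and laminin, integrin and plasminogen medians from 0.47 to 0.98, so the 4 lines share a sign there, while the tuft median of line 4 is 0.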

How the data were processed

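The members and the gene lists were chosen with earlier results of these data known. Poly(A) RNA was sequenced as dUTP directional libraries, per the labels' protocols, and the authors deposited raw counts per gene. HISAT2 2.0.5 and GRCm38 (mm10) are named in the submitters' processing notes. The counting program and its strand setting are not given in the sources used here, so overlapping genes are uncertain.

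The 16 A-485 libraries were fitted together in edgeR 4.0.16 (R 4.3.3, limma 3.58.1), with dose and line as terms, filterByExpr by dose, TMM scaling and quasi-likelihood F-tests. Benjamini-Hochberg adjusted p-values are over all 13724 tested genes and a gene was called under 0.05. The fit was tested on simulated data. Standard errors are the log2 fold change over the square root of F. The other 76 libraries were not used. The block rests on the labels, which give the same line at each dose, and residuals of the same line at 3 and 5 µM correlated at 0.314 to 0.484, other pairs at -0.406 to 0.273. No pair of libraries agreed within sampling noise (smallest chi-square per degree of freedom 8.92).

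Genes named are the 12 largest rises and 12 largest falls (called, doses not overlapping, 4 lines in 1 direction, mean over the 8 libraries 3 or more in log2 CPM, no predicted genes), the 4 most positive and 4 most negative of each test between steps, up to 4 members of each list by p, and fixed markers. A few genes that this rule names are not reported here. Other list members and the ribosomal list were named after their values were seen. Promoter stretches come from RefSeq (GRCm38.p6). Alternatives were other scalings, DESeq2 1.42.0, no filter, no line block, the 8 libraries alone, and leaving out each line or library.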

Additional observations from a re-analysis of the deposited data

Results flagged for a closer look

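With 4 libraries per dose, a library was singled out where its gap to the nearest other library was a larger part of the group's range than Dixon's 95% critical value. Chance singles out about 1 in 20 groups, and 20 of 282 tests on the named genes did so. Mitochondrial transcripts took 3.44% of counts in line 4 at 5 µM and 3.23% in line 4 at 10 µM, and the 10 most abundant genes took 5.56% in line 4 at 10 µM.

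Line 4 stood apart at 3 µM for Cdk1 (108.4 CPM), Eif4g2 (1711 CPM), Bmp7 (24.4 CPM) and Shmt2 (73.6 CPM), and at 5 µM for Eif4g2 (1419 CPM), Gpx2 (103.7 CPM) and Bmpr2 (279.8 CPM). Line 1 stood apart at 3 µM for Kat2b (47.9 CPM), Irf7 (44.6 CPM) and Mapk11 (20.3 CPM), all above the others, and at 5 µM for Uhrf1 (62.5 CPM), Mcm6 (139.8 CPM), Cd24a (356.6 CPM) and Gkn3 (1.09 CPM). Line 3 stood apart at 5 µM for Ehd2 (125.6 CPM), Abcc4 (113.7 CPM), Tac1 (0.728 CPM) and Dclk1 (0.146 CPM), and line 2 at 5 µM for Cldn18 and Pgc (0.254 CPM each).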

How the results depend on the processing

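No named result changed sign past the threshold under any alternative run. Counts in the direction that most called genes took for the stem cell, DNA replication, mitosis, fetal, laminin, EGF, ATF4 and pan-epithelial lists stayed within 1.5 times under every alternative (mitosis 28 throughout). With a line or library left out, 2564 to 4825 genes were called at 3 to 5 µM. The split of calls at that step kept 42.8% to 50.7% higher. Without the replicate block (the line term), 3358 genes were called and 13 of 161 gene-level results lost their call.

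The difference from the step before gave 83 to 783 genes with a line left out, 988 with library totals alone, 1125 in DESeq2, 1301 with no filter and 225 without the block. More positive changes were 32.3% of these calls, 10.9% with library totals (which moved the median of all genes from -0.021 to -0.190), 43.2% in DESeq2, 45.7% with no filter and 14.7% without the block. The difference from the step after gave 440 to 1413 with a line left out and 670 without the block, and 21.1% of its calls were more positive, 34.5% with library totals. The cause was not tested.

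With a line or library left out, counts of lower genes were 7 to 14 (Paneth), 8 to 17 (goblet), 7 to 15 (enteroendocrine), 3 to 5 (tuft), 3 to 7 (Notch), 1 to 6 (identity factors), 3 to 7 (acetyltransferase list) and 4 to 9 (sterol), and of higher genes 5 to 10 (YAP) and 9 to 15 (p53). Without the block they were 3 lower enterocyte genes, 3 lower identity factors, 3 higher and 4 lower acetyltransferase genes, 3 higher histone methylation genes and 9 higher p53 targets. In the 8 libraries alone they were 2 of 5 tested (tuft), 14 (enterocyte) and 4 (acetyltransferase, lower), and with no filter 16 (enterocyte) and 12 (interferon). The mitochondrial difference ranged from -0.097 to 0.520 points. Depth limits genes near 0.182 to 0.307 CPM, which 3 counts would give at 3 and 5 µM.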

Other observations

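Neat1, the long non-coding RNA that scaffolds nuclear paraspeckles, was in no list and was noticed after its values were seen beside those of Malat1. In lines 1 to 4 it stood at 29.6, 21.4, 23.8 and 28.8 CPM at 3 µM and at 114.4, 62.4, 72.1 and 73.4 CPM at 5 µM, from a mean of 13.7 CPM in DMSO. The doses did not overlap and it rose in 4 of 4 lines by 1.63 ± 0.28 on the log2 scale (edgeR adjusted p = 0.0008). Malat1 stood at 212, 117, 115 and 197 CPM at 3 µM and at 777, 401, 479 and 548 CPM at 5 µM.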
